A study of Homo sapiens with 24 samples.

Results

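The extracellular matrix is the network of secreted proteins and sugar chains around cells, and 54 genes that code for its non-collagen proteins, or for enzymes that act on it, were followed in a diffuse midline glioma (DMG) cell line treated with vehicle or with the PRMT5 inhibitor LLY-283. They were taken by gene symbol, through the Ensembl identifier of each row, from a table of 58676 gene identifiers, and all 54 were found. The rule itself uses no measured value, but the genes were chosen with earlier results of these data known. They fall into 10 groups by role: 3 matrilins, 6 lecticans and related proteins, 2 tenascins, 3 fibronectin and fibrillin genes, 12 basement membrane genes, 13 matricellular genes, 4 small leucine-rich proteoglycans, 4 glypicans, 5 fibulins and other glycoproteins, and 2 matrix enzymes.

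Brain matrix differs from that of connective tissue in holding little fibrillar collagen. It is built on hyaluronan, which the lecticans (aggrecan, versican, neurocan and brevican) bind together with link proteins, in a network that tenascins cross-bridge. Basement membranes, the thin sheets around vessels, are networks of laminin trimers (each made of an alpha, a beta and a gamma chain) joined to collagen IV by nidogens and by the heparan sulfate proteoglycans perlecan and agrin. Matricellular proteins such as osteopontin, periostin and the thrombospondins have little structural part and bind integrins and other cell surface receptors.

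The cells were HSJD-DIPG-007, an established line of DMG that is kept in culture as spheroids. The submitters give its genotype as H3F3A K27M, ACVR1 R206H and PIK3CA MIS, which every library shares. Cultures received vehicle or LLY-283 once, at the concentration that inhibits growth by 40% (GI40), and in the study's methods the medium was renewed after 5 days with vehicle or drug added again. Polyadenylated RNA was sequenced in 24 libraries, 12 from vehicle and 12 from LLY-283 cultures, with 3 libraries per treatment at days 0 and 5, 2 at day 7, and 1 at each of days 1, 2, 3 and 10. The study describes libraries of the same treatment and day as technical repeats of 1 cell line, so each p-value below measures the spread between such repeats only. These are bulk cultures, in which fewer cells of a type and less RNA per cell cannot be told apart.

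Library totals lay between 13835205 and 23190369 estimated counts. Levels are given as CPM (the usual unit of a count scaled to its library total), scaled by the TMM method over all 24 libraries. Of 8 markers of glioma and oligodendrocyte precursor cells, 7 were present in every library, with OLIG2 at 230 to 372 CPM and PTPRZ1 at 2611 to 4188 CPM, while SOX10 lay between 0 and 0.603 CPM. Endothelial and immune markers were low, with PTPRC at 0.277 CPM or less and TYROBP at 0 throughout, although the endothelial marker PECAM1 reached 25.0 CPM. In 3 libraries (the LLY-283 library of day 2, repeat 3 of vehicle at day 5 and repeat 1 of vehicle at day 7), FN1 and several other matrix genes stood above all of the other 21, and results that rest on them are given with and without them. At day 7, the libraries labelled repeat 2 lay nearer to the opposite treatment, so day 7 entered only an alternative fit and is given by label.

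The matrix genes ranged from among the most abundant transcripts of these cells to none. In vehicle at day 0, 16 of the 54 exceeded 100 CPM on average, another 16 lay between 10 and 100 CPM, 6 between 1 and 10 CPM and 16 under 1 CPM. In all 24 libraries, 8 genes stayed under 1 CPM. SPOCK3, which codes for a testican proteoglycan, had 0 counts in each of the 24, which in the smallest library allows up to 0.217 CPM (3 counts, for counting error only).

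Levels of different genes were compared per kilobase of the Ensembl canonical transcript. SPARC, a secreted collagen-binding glycoprotein, stood first in vehicle at day 0, at 134 ± 5.49 CPM per kb (SD, n = 3), higher than 98.8% of all genes detected. BCAN, the gene of the lectican brevican, followed at 84.1 ± 4.53 CPM per kb, and the laminin chains LAMC1 and LAMB1 came next at 66.4 ± 2.27 and 62.8 ± 0.387 CPM per kb. The ranges of these 4 genes over 3 libraries did not overlap. NID1, which codes for nidogen-1, came after them at 52.8 ± 0.712 CPM per kb, and its range overlapped those of the glypican GPC1 (52.7 CPM per kb) and of SPP1 (52.5 CPM per kb), so the order among them is not resolved. With the length of all annotated exons in place of the canonical transcript, 4 of the first 5 genes were still among the first 5. LAMB1 moved from rank 4 to 11 and SPP1 from 7 to 19, and LAMC1 at rank 2 passed BCAN at 3. The order after SPARC thus depends on the length used.

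**Figure D1:**
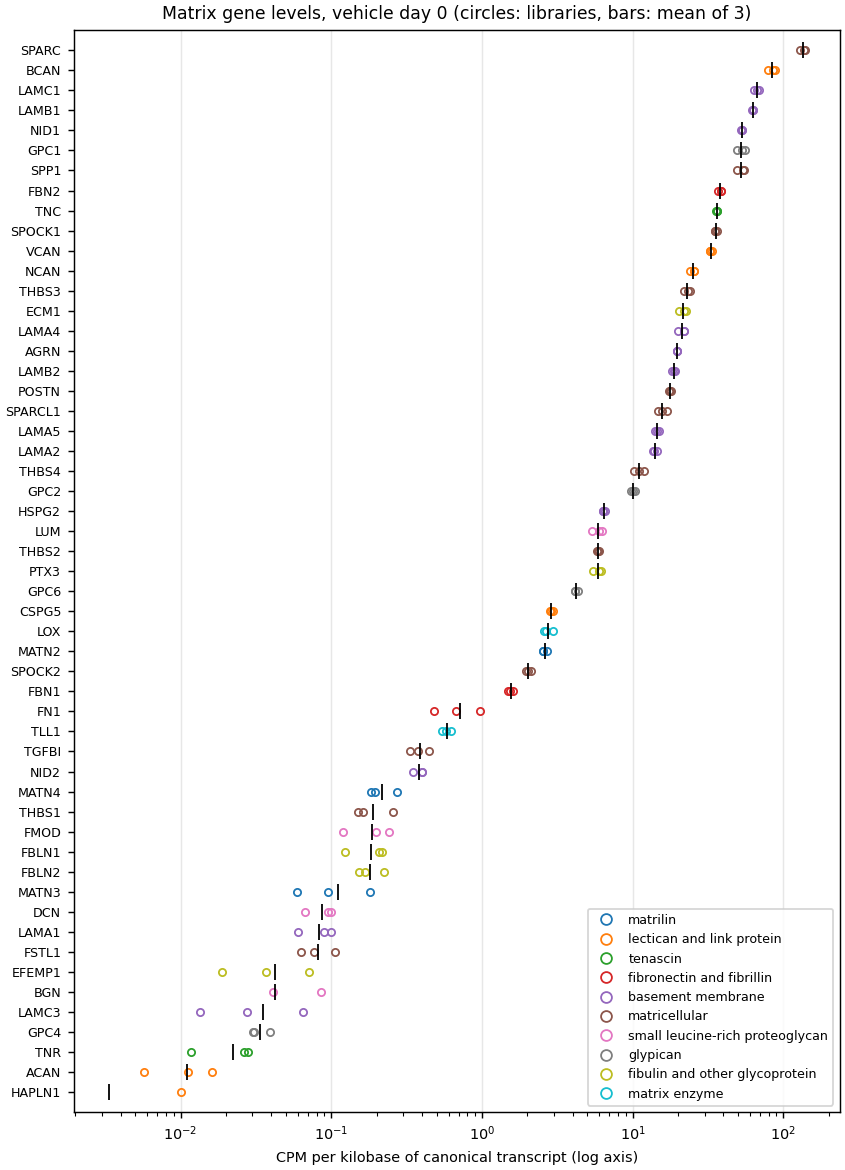
Level of each matrix gene in vehicle libraries at day 0 in CPM per kilobase of canonical transcript, on a log axis, with 1 circle per library, a bar at the mean of 3 and colours for roles. Libraries at 0 have no circle, and SPOCK3, at 0, is not drawn. SPARC is highest at 134 CPM per kb on average, ahead of BCAN at 84.1 CPM per kb.

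The next question was which matrix genes differed between LLY-283 and vehicle at day 5, where each treatment has 3 libraries. Most of the genes that differed were higher with LLY-283, led by the protease TLL1, the matricellular genes POSTN and SPP1 and the matrilin MATN2, and NID1 and PTX3 were lower. A gene was called at an adjusted p under 0.01 in the quasi-likelihood test of edgeR, adjusted over all genes tested by the Benjamini-Hochberg method. Of the 54 genes, 43 passed the filter on low counts (about 0.588 CPM in at least 3 libraries). With LLY-283, 23 of these were higher and 2 lower than in vehicle, and 18 were not called. In the day 5 results, rose and fell mean higher and lower than in vehicle on that day, not a change over time. Over all 16491 genes tested, 26.1% were called, 12% higher and 14.1% lower. With library size alone as the scaling, the all-gene split turned from 1987 higher and 2317 lower to 2274 higher and 1840 lower, and the matrix genes had 22 higher and 2 lower. The median log2 fold change was 0.23 over the 43 genes and 0.02 over all tested genes. The 43 genes were also more abundant, with a median of 46.4 CPM against 20.6 CPM over all tested genes, and abundant genes are called more readily. Treatment groups did not overlap for 30 of the 43, against 46.7% of all tested genes.

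The other 11 genes did not pass the filter at day 5: MATN3, ACAN, HAPLN1, TNR, LAMC3, SPOCK3, TGFBI, FSTL1, BGN, GPC4 and EFEMP1. Among the tested genes, 37 passed the filter in each treatment on its own, 5 in 1 treatment only (LAMA1, THBS1, DCN, FMOD and FBLN1) and MATN4 only with the treatments together. None of these 6 was called.

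**Figure D2:**
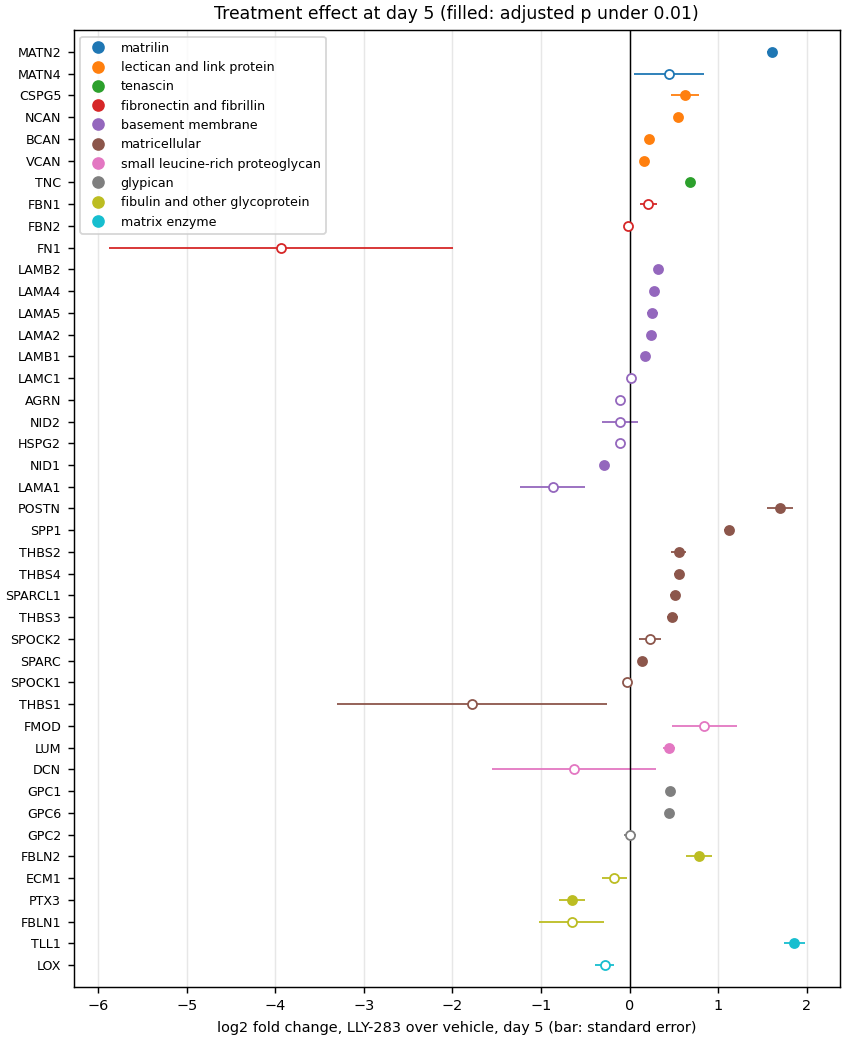
Log2 fold change of LLY-283 over vehicle at day 5 for each tested matrix gene, with its standard error as the bar, grouped by role; filled points are the 25 genes called by edgeR. The points run from TLL1 at 1.86 down to FN1 at -3.94, and FN1, THBS1 and DCN have the widest bars.

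For the 4 largest increases that have a single promoter window in the RefSeq table (GRCh38.p14), and for both called decreases, the 250 bases before the RefSeq transcript start are printed 5′ to 3′ on the strand of the gene, so that the letters upstream of genes that moved in each direction can be compared. The windows are TLL1 at chr4:165872987-165873236 (plus strand), POSTN at chr13:37598769-37599018 (minus), SPP1 at chr4:87975464-87975713 (plus), TNC at chr9:115118158-115118407 (minus), PTX3 at chr3:157436600-157436849 (plus) and NID1 at chr1:236065091-236065340 (minus). Capitals mark matches, on either strand, to TATAAA (the core of a TATA box), GGGCGG (that of a GC box), CCAAT (that of a CCAAT box) or TGANTCA (an AP-1 site).
TLL1: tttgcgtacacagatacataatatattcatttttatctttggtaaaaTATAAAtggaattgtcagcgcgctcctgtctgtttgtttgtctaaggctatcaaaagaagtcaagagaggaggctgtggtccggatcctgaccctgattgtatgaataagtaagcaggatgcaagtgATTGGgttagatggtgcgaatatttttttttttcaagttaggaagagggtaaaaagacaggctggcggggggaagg
POSTN: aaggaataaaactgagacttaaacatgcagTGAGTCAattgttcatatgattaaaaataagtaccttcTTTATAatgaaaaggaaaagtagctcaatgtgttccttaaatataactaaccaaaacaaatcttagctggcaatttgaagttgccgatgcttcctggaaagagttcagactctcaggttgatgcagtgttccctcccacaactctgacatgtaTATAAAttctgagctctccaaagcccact
SPP1: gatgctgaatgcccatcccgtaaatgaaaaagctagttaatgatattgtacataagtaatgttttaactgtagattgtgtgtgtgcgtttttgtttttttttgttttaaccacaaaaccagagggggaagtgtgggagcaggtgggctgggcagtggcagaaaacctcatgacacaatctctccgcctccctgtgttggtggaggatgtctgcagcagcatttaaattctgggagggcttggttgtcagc
TNC: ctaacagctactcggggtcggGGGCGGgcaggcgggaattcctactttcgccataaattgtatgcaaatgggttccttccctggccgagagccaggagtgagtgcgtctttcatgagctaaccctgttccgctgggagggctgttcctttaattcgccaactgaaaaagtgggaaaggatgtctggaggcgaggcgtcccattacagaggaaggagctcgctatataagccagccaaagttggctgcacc
PTX3: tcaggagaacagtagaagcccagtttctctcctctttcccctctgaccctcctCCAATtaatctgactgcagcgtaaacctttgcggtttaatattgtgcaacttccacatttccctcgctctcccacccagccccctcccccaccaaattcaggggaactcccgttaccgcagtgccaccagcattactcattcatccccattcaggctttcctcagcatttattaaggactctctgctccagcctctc
NID1: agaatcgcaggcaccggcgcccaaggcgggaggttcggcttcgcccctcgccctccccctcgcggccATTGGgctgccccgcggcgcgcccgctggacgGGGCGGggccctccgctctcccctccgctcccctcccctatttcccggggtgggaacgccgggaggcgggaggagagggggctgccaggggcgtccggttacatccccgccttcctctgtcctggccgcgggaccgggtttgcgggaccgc

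The windows differed most in base composition. Among the genes higher with LLY-283, GC content was 36.4% for POSTN, 40.4% for TLL1, 44.8% for SPP1 and 54.8% for TNC. Of the lower genes, PTX3 had 51.6% and NID1 76.4%. The median over all 35116 windows of the table was 58.0%. Over the 54 windows of the 44 matrix genes that have any, the median was 66.0%. TATAAA stood in the TLL1 window 203 bases before the start. In POSTN it stood 29 bases before the start and, on the other strand, 182 bases before it. Of all windows 10.7% held it, and of those of matrix genes 13.0%. TGANTCA stood only in the POSTN window among the 6, and 6.57% of all windows held it. GGGCGG, found in TNC and NID1, was in 42.6% of all windows and 55.6% of those of matrix genes, and CCAAT, found in TLL1, PTX3 and NID1 on either strand, in 32.0% and 27.8%. A match describes the letters only, and other forms of a site were not searched. MATN2 and NCAN have no window in the table.

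TLL1 (ENSG00000038295, chr4:165873237-166104457) codes for tolloid-like 1, an astacin-family metalloprotease that cleaves procollagen and other matrix precursors. Its level at day 5 was 4.85, 5.26 and 6.06 CPM in the vehicle libraries and 22.5, 18.4 and 16.8 CPM in those of LLY-283. Every LLY-283 library lay well above every vehicle library, and the log2 fold change was 1.86 (SE 0.117, adjusted p = 2.2e-12), or 3.64-fold. The other enzyme of the set, the collagen cross-linking oxidase LOX, was not called (log2 fold change -0.28, adjusted p = 0.050).

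POSTN (ENSG00000133110, chr13:37562583-37598844) codes for periostin, a matricellular ligand of integrins. In vehicle it measured 20.3, 20.8 and 29.4 CPM and with LLY-283 80.6, 73.9 and 68.6 CPM, so the groups lay far apart although the vehicle repeats were uneven. The log2 fold change was 1.70 (SE 0.147, adjusted p = 0.00061). SPP1 (ENSG00000118785, chr4:87975667-87983532), the gene of osteopontin, a secreted integrin and CD44 ligand, was close to even within each treatment, with 35.4, 34.3 and 36.3 CPM in vehicle against 80.1, 78.9 and 68.6 CPM with LLY-283. It rose 2.18-fold (log2 fold change 1.13, SE 0.0564, adjusted p = 2.4e-14).

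Of the 13 matricellular genes, 10 were tested and 7 rose, with no decrease called. The thrombospondins are secreted glycoproteins that in the brain are known for astrocyte signals to synapses, and 3 of the 4 tested rose. THBS4 measured 40.4, 37.4 and 38.1 CPM in vehicle against 56.7, 55.3 and 55.4 CPM with LLY-283. The log2 fold changes were 0.56 for THBS2, 0.55 for THBS4 and 0.48 for THBS3 (adjusted p between 2.0e-09 and 6.9e-06). SPARCL1, also called hevin and a relative of SPARC, went from 59.4, 50.7 and 56.6 CPM to 82.2, 78.0 and 73.8 CPM (log2 fold change 0.51, adjusted p = 1.9e-08). SPARC itself had a log2 fold change of only 0.14 (adjusted p = 0.0045), and with scaling over all 24 libraries its lowest LLY-283 repeat, at 378 CPM, was below the highest vehicle repeat, at 385 CPM. The testicans SPOCK1 and SPOCK2 were not called, with log2 fold changes of -0.02 and 0.23.

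MATN2 (ENSG00000132561, chr8:97868840-98036724) codes for matrilin-2, an adaptor protein of filamentous matrix, and had the smallest p of the 54. Its day 5 log2 fold change was 1.61 (SE 0.0563, adjusted p = 5.5e-18), with no vehicle library above 24.6 CPM and no LLY-283 library under 67.0 CPM. MATN4, the other matrilin tested, was near the filter and not called (log2 fold change 0.44, adjusted p = 0.41).

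All 4 tested genes of the lectican group rose, by unequal amounts. NCAN (ENSG00000130287, chr19:19211958-19252233), the gene of neurocan, measured 414, 403 and 395 CPM in vehicle against 610.0, 583 and 553 CPM with LLY-283. Its groups were far apart relative to their spread, with a log2 fold change of 0.55 (SE 0.0359, adjusted p = 2.3e-12). For BCAN the vehicle libraries gave 569, 596 and 596 CPM and the LLY-283 libraries 658, 709 and 648 CPM (log2 fold change 0.22, adjusted p = 3.8e-05). VCAN, the gene of versican, moved less still, from 315, 305 and 288 CPM to 343, 333 and 321 CPM (log2 fold change 0.16, adjusted p = 0.0011). CSPG5, a transmembrane chondroitin sulfate proteoglycan, was low at 4.22, 4.27 and 3.25 CPM in vehicle against 5.37, 6.63 and 5.90 CPM under LLY-283 (log2 fold change 0.63, SE 0.158, adjusted p = 0.0024). With the DESeq2 test in place of edgeR's, CSPG5 was not called (adjusted p = 0.015). Per kilobase, VCAN, NCAN, BCAN and ACAN, which did not pass the filter, were together at 266 ± 2.78 CPM per kb in vehicle and 322 ± 12.2 CPM per kb with LLY-283 (SD, n = 3). ACAN made up 0.016% of this sum in vehicle and 0.011% with LLY-283. Within that sum the share of NCAN was 23.8% in vehicle and 28.3% with LLY-283, that of BCAN 67.0% and 63.3%, and that of VCAN 9.23% and 8.38%.

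TNC (ENSG00000041982, chr9:115019575-115118207) codes for tenascin-C, a large hexameric glycoprotein of embryonic and tumour matrix. It measured 219.6, 212 and 204 CPM in vehicle against 333, 326 and 344 CPM with LLY-283, a rise of 1.60-fold (log2 fold change 0.68, SE 0.0375, adjusted p = 8.5e-14). Both groups were tight and did not overlap. TNR, the tenascin of oligodendrocytes and interneurons, did not pass the filter.

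The basement membrane genes moved by small amounts, and 5 of 11 tested rose while 1 fell. The risen genes were all laminin chains: LAMB2 (log2 fold change 0.32), LAMA4 (0.28), LAMA5 (0.26), LAMA2 (0.24) and LAMB1 (0.17). LAMA4 measured 206, 206 and 204 CPM in vehicle against 248, 247 and 241 CPM with LLY-283. LAMC1, the gamma chain that most laminin trimers hold, was not called, with 693, 677 and 681 CPM in vehicle against 705, 671 and 671 CPM (log2 fold change 0.02, adjusted p = 0.64). Summed per kilobase, alpha chains were at 59.7 ± 0.224 CPM per kb in vehicle and 70.3 ± 0.887 CPM per kb with LLY-283, beta chains at 89.1 ± 0.964 and 101 ± 1.15 CPM per kb, and gamma chains at 86.2 ± 1.07 and 86.1 ± 2.50 CPM per kb (SD, n = 3). The alpha and beta sums thus did not overlap between treatments and the gamma sums did. LAMA4 made up 47.6% of the alpha sum in vehicle and 48.2% with LLY-283, and LAMA2 26.5% and 26.1%.

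NID1 (ENSG00000116962, chr1:235975830-236065109) went the other way from the laminin alpha and beta chains that were called. It measured 462, 453 and 443 CPM in vehicle against 386, 349 and 356 CPM with LLY-283, without overlap, and fell by 0.29 on the log2 scale (SE 0.0361, adjusted p = 3.1e-07). NID2 had a log2 fold change of -0.11 (adjusted p = 0.71). Agrin (AGRN) and perlecan (HSPG2) were also slightly lower without passing the test, with log2 fold changes of -0.10 (adjusted p = 0.027) and -0.11 (adjusted p = 0.052).

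PTX3 (ENSG00000163661, chr3:157436850-157443633), which codes for the long pentraxin that binds hyaluronan-linked matrix and complement, was the other decrease. It measured 7.02, 5.78 and 7.31 CPM in vehicle against 4.26, 4.26 and 4.05 CPM with LLY-283, and fell by 0.65 on the log2 scale (SE 0.147, adjusted p = 0.00086). FBLN2, the gene of fibulin-2, a binding partner of lecticans and basement membrane proteins, rose in the same role group, from 3.85, 3.94 and 4.51 CPM to 7.00, 7.36 and 6.45 CPM (log2 fold change 0.79, SE 0.144, adjusted p = 7.8e-05). ECM1 and FBLN1 were not called.

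Among the cell surface glypicans, heparan sulfate proteoglycans held by a lipid anchor, 2 of 3 tested rose. GPC1 measured 213, 204 and 214 CPM in vehicle against 286, 276 and 288 CPM with LLY-283, and GPC6 31.9, 32.5 and 31.8 CPM against 44.6, 43.4 and 41.4 CPM. Their log2 fold changes were 0.46 and 0.45 (adjusted p = 1.0e-10 and 2.4e-07), while GPC2 was at 0.01. Of the small leucine-rich proteoglycans, which bind collagen fibrils, lumican (LUM) rose, with a log2 fold change of 0.44 (adjusted p = 7.2e-06). Neither fibrillin was called, FBN1 at 0.21 (adjusted p = 0.091) and FBN2 at -0.02 (adjusted p = 0.65).

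FN1 (ENSG00000115414, chr2:215360440-215436073), the gene of fibronectin, had the largest fitted difference of the 43 but was not called. Its level was 2.42, 2.69 and 60.4 CPM in vehicle against 0.758, 0.999 and 2.20 CPM with LLY-283, so the fitted log2 fold change of -3.94 (SE 1.94, adjusted p = 0.21) rested on vehicle repeat 3. Without that library it was -0.91 (adjusted p = 0.069). THBS1, with 11.5 CPM in the same library and at most 1.70 CPM in the other 5, went from a log2 fold change of -1.78 to 1.18 without it (adjusted p = 0.45 and 0.073), and DCN, the gene of decorin, from -0.62 to 0.88 (adjusted p = 0.66 and 0.13). Leaving this library out ended 4 calls, those of VCAN (adjusted p = 0.023), CSPG5 (0.020), LAMA5 (0.012) and SPARC (0.035), and HSPG2 then fell (log2 fold change -0.17, adjusted p = 0.0039), so that 19 genes rose and 3 fell.

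The difference at day 5 includes what vehicle cells did between days 0 and 5, so each treatment was next followed over time. In vehicle, 43 genes were tested, 16 rose and 12 fell, against 38.9% of all 17106 genes tested (22.2% higher and 16.7% lower). With library size alone as the scaling, the all-gene split of called genes turned from 3799 higher and 2853 lower to 3039 higher and 3545 lower, and that of the matrix genes became 13 higher and 12 lower. With LLY-283, 42 genes were tested, 24 rose and 10 fell, against 42.4% of all 17341 genes tested (22.9% higher and 19.5% lower). The median log2 fold change was 0.17 in vehicle and 0.32 with LLY-283, and -0.02 and 0.01 over all genes tested. Days did not overlap for 33 of the 43 genes in vehicle and 36 of the 42 with LLY-283, against 57.2% and 57.7% of all genes tested. The vehicle libraries of day 5 serve both in this time effect and in the treatment effect at day 5, so the pair are not independent.

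The widest movements over time were shared by the treatments in direction. FBLN2 started at 0.654, 0.727 and 0.971 CPM in vehicle at day 0 and rose by day 5 in vehicle (log2 fold change 2.36, SE 0.247, adjusted p = 5.5e-09) and with LLY-283 (2.94, SE 0.185, adjusted p = 1.7e-12). ECM1 (ENSG00000143369, chr1:150508062-150513789), a secreted glycoprotein known from skin and bone, started at 44.8, 41.8 and 46.6 CPM in vehicle and was down to 14.2 CPM in vehicle against 12.1 CPM with LLY-283 at day 1. It fell by 2.84 on the log2 scale in vehicle (SE 0.0818, adjusted p = 8.9e-21) and by 3.05 with LLY-283 (SE 0.0762, adjusted p = 5.3e-20).

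Among the lecticans, NCAN and VCAN changed places over time in each treatment. In vehicle NCAN rose 2.49-fold and BCAN 2.09-fold while VCAN fell by 0.44 on the log2 scale (adjusted p = 8.4e-21, 1.8e-18 and 1.3e-10). NCAN, at 154, 164 and 165 CPM in vehicle at day 0, was already at 348 CPM in vehicle against 365 CPM with LLY-283 by day 1. Their sum per kilobase went from 142 ± 5.87 CPM per kb at day 0 to the 266 CPM per kb given above, and the share of VCAN in it from 23.2% to 9.23%. In the basement membrane group 8 of 11 tested genes rose over time in each treatment and 0 were called lower by edgeR, where 1 of the other 3 in each treatment had an unadjusted p under 0.05 (LAMB1 in vehicle and LAMA5 with LLY-283, neither of them lower).

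**Figure D3:**
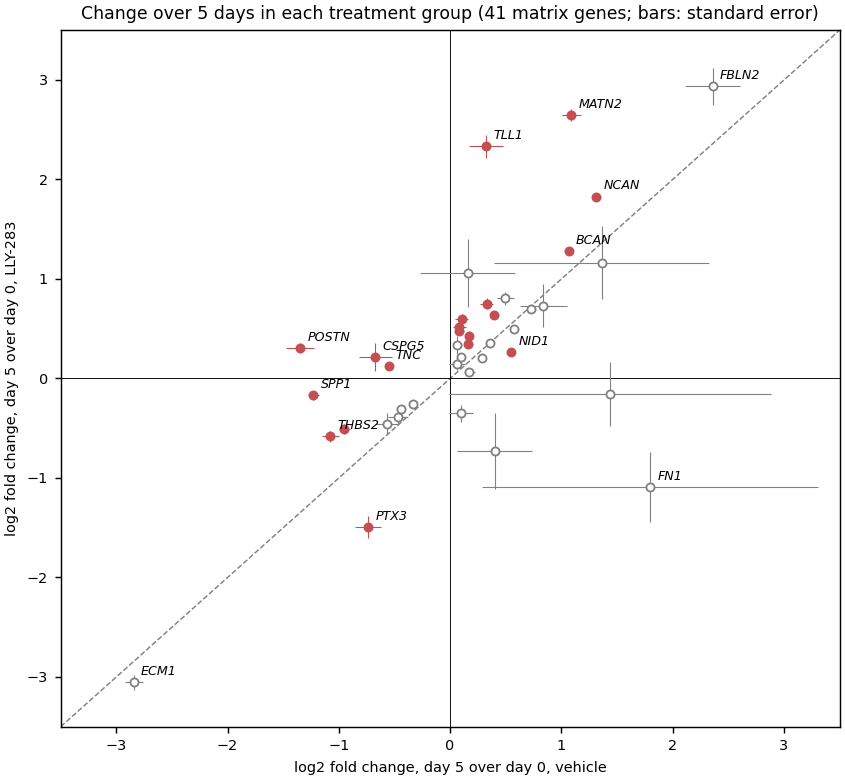
Log2 fold change from day 0 to day 5 in LLY-283 (vertical axis) against vehicle (horizontal axis) for the 41 matrix genes tested in both, with standard errors as bars. Points above the dashed diagonal had the larger value with LLY-283, and filled points are those whose difference edgeR called. ECM1 lies at the lower left, at -2.84 and -3.05, and FBLN2 at the upper right, at 2.36 and 2.94.

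Several genes that LLY-283 cells held at a higher level on day 5 had fallen in vehicle and not, or less, in the treated cells. POSTN stood at 58.8, 57.4 and 59.7 CPM in vehicle at day 0, fell 2.54-fold in vehicle (log2 fold change -1.35, adjusted p = 0.00015) and rose 1.24-fold with LLY-283 (0.31, adjusted p = 6.1e-06). SPP1 fell 2.34-fold in vehicle and 1.12-fold with LLY-283 (adjusted p = 2.6e-17 and 0.0039), and TNC fell 1.47-fold in vehicle and rose 1.09-fold with LLY-283 (adjusted p = 6.0e-13 and 0.0027). THBS2 and THBS3 fell in each, by 1.08 and 0.95 on the log2 scale in vehicle and by 0.58 and 0.51 with LLY-283. CSPG5 fell in vehicle by 0.67 and was not called with LLY-283 (0.22, adjusted p = 0.20).

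Another group had the larger increase with LLY-283. MATN2 went from 10.6, 10.6 and 11.2 CPM at day 0 to a 2.13-fold higher level in vehicle, and 6.27-fold higher with LLY-283 (log2 fold changes 1.09 and 2.65, adjusted p = 6.4e-12 and 6.2e-21). TLL1 rose 5.04-fold with LLY-283 (adjusted p = 2.4e-14) and was not called in vehicle (log2 fold change 0.32, adjusted p = 0.082). GPC1, GPC6 and THBS4 likewise rose with LLY-283, by log2 fold changes of 0.48, 0.52 and 0.60, and were not called in vehicle, at 0.08, 0.08 and 0.10. NID1 rose in each treatment, by 0.55 in vehicle and 0.26 with LLY-283, so its lower level with LLY-283 at day 5 was a smaller rise. PTX3 fell in each, by 0.74 in vehicle and by 1.49 with LLY-283.

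Whether the time effects themselves differed was tested by the interaction of treatment with day over the 12 libraries of days 0 and 5. Of 44 matrix genes tested, the log2 change was higher with LLY-283 for 17 and lower for 2, against 14.9% of all 18369 genes tested (6.78% higher and 8.15% lower). With library size alone as the scaling, the all-gene split turned from 1245 higher and 1497 lower to 1493 and 1252, and the matrix genes had 19 higher and 2 lower. Among called genes, the largest differences on the log2 scale were those of TLL1 (2.02), POSTN (1.66), MATN2 (1.57) and SPP1 (1.07), and the negative ones those of PTX3 (-0.75) and NID1 (-0.28). Fitted differences of TGFBI (-4.54), FN1 (-2.90), THBS1 (-1.59) and LAMA1 (-1.12) were not called, and without vehicle day 5 repeat 3 they were -0.30, 0.15, 1.38 and -1.15. The difference for FBLN2, 0.58, was not called (unadjusted p = 0.068), nor that for ECM1, -0.20 (unadjusted p = 0.13). These tests use the same day 5 libraries as above. In a single edgeR fit of the 22 libraries of days 0 to 7, the spread includes the day 7 libraries. There the difference was called for 0 matrix genes and 51 of all genes. At an unadjusted p under 0.05 were 18 of the 48 matrix genes and 5284 of all 20756 genes tested.

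Between days 0 and 5 each treatment had 1 library a day. At day 3, all 23 genes that rose at day 5 were higher in the LLY-283 library than in the vehicle library, with a median difference of 0.36 in log2(CPM + 0.5), and 87.8% of all genes called higher at day 5 were so. At day 2 this held for 16 of the 23 (median 0.07) and for 74.3% of all such genes, and at day 1 for 11 (median -0.0020) and 56.7%. In the means of day 0 it held for 20 of the 23, with a median of 0.05, and for 56.5% of all such genes. POSTN measured 52.6 CPM in vehicle against 53.7 CPM with LLY-283 at day 1, 46.7 and 56.3 CPM at day 2, and 34.1 and 94.9 CPM at day 3. TNC measured 196 and 178 CPM, 225 and 247 CPM, and 201 and 333 CPM on those days, and MATN2 12 and 10.3 CPM, 17.6 and 18.6 CPM, and 14.3 and 32.5 CPM. SPP1 was highest of these days at day 1, at 131 CPM in vehicle against 143 CPM with LLY-283. NID1 stayed close between treatments through day 3, at 385 CPM in vehicle against 375 CPM with LLY-283 on that day.

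A paired test over days 1, 2 and 3 called 0 of 47 matrix genes in edgeR and 0 in DESeq2. The test fits 1 treatment effect shared by the days, so a change of that effect between days counts as spread. In log2(CPM + 0.5), MATN2 differed by -0.21, 0.08 and 1.15 on days 1, 2 and 3, and POSTN by 0.03, 0.26 and 1.46. The test therefore cannot decide whether an effect began at day 3. In edgeR, 12 of the 47 and 3016 of all 19179 genes tested were at an unadjusted p under 0.05. The edgeR test called 0.0104% of the 19179 genes, 0.00521% in each direction. Without day 2, the day of the LLY-283 library that stood apart, 3 matrix genes were higher in the effect fitted to days 1 and 3 together. These were POSTN (log2 fold change 0.74), MATN2 (0.54) and SPP1 (0.40), and 141 of all 18555 genes tested were called, 76 higher and 65 lower. Without day 3, 4 matrix genes were higher (SPARCL1, THBS1, TGFBI and FSTL1) and 2 lower (BCAN and AGRN). That fit called 417 of all 19123 genes tested, 188 higher and 229 lower. Of those 4, THBS1, TGFBI and FSTL1 were above all of the other 21 libraries in the LLY-283 library of day 2.

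**Figure D4:**
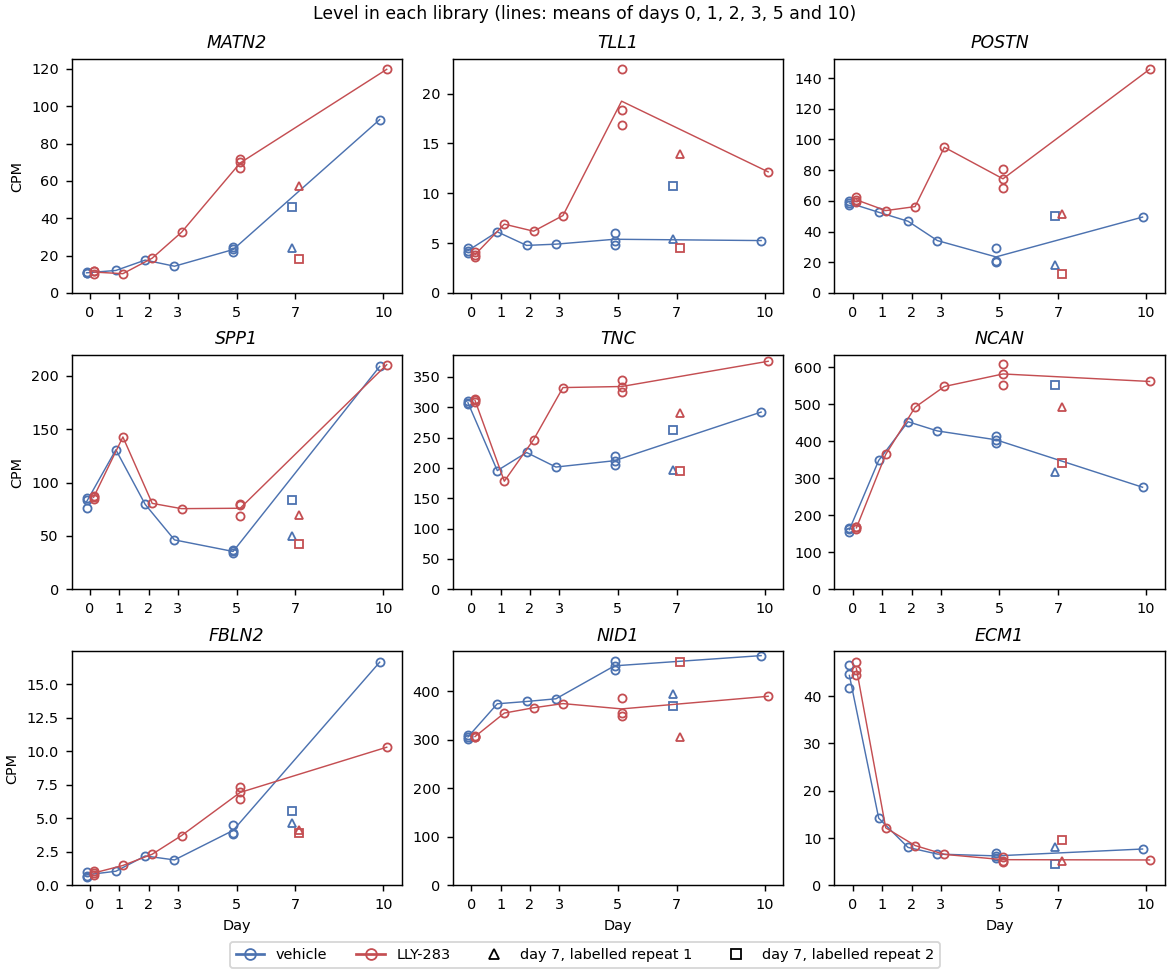
Level in CPM against day for 9 matrix genes, with 1 point per library, vehicle and LLY-283 in separate colours, lines through the means of all days but day 7, and triangles and squares for the day 7 libraries labelled repeat 1 and repeat 2. POSTN stands at 34.1 CPM for vehicle against 94.9 CPM for LLY-283 at day 3, and at day 7 its squares lie in the opposite order to its triangles.

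After day 5 the levels depend on the labels of day 7. In the libraries labelled repeat 1, 20 of the 23 genes were higher with LLY-283 (median difference 0.33), and 91.9% of all genes called higher at day 5 were. In those labelled repeat 2 it was 3 of the 23 (median -0.40) and 15.7% of all such genes. POSTN, for example, was at 18.2 and 51.2 CPM in the repeat 1 libraries labelled vehicle and LLY-283, and at 50.2 and 12.3 CPM in those labelled repeat 2. At day 10, with 1 library each and no test, 18 of the 23 were higher with LLY-283, or 78.3%, close to the 74.2% of all genes called higher at day 5. POSTN was at 49.4 CPM in vehicle against 146 CPM with LLY-283. SPP1 was at 209 and 211 CPM there, and BCAN at 747 CPM in vehicle against 356 CPM with LLY-283, opposite in direction to day 5.

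At day 0, which in the study stands for 0 days of treatment, the treatments served as a background for these comparisons. Of 42 matrix genes tested, edgeR and DESeq2 each called 0, and edgeR called 0.0169% of 17780 genes in all. FN1 alone of the 42 had an unadjusted p under 0.05 in edgeR, against 1012 of all 17780 genes. It measured 4.02, 8.19 and 5.67 CPM in vehicle against 3.54, 2.03 and 3.12 CPM under LLY-283 (log2 fold change -1.04, edgeR adjusted p = 0.79). Groups did not overlap for 6 of the 42, against 11.2% of all tested genes.

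The 3 libraries that stood apart did so in the same genes. Relative to the highest of the other 21 libraries, 6 of the 54 genes were higher in each of the 3. FN1 measured 26.0 CPM in LLY-283 day 2, 60.4 CPM in vehicle day 5 repeat 3 and 30.0 CPM in vehicle day 7 repeat 1, against at most 8.19 CPM elsewhere. TGFBI, which codes for a secreted integrin ligand, measured 4.59, 12.9 and 6.49 CPM against 1.21 CPM, and the follistatin relative FSTL1 2.48, 7.02 and 3.25 CPM against 0.604 CPM. THBS1, BGN and EFEMP1 were the other 3. DCN was at 2.32, 3.77 and 1.82 CPM in these libraries, but another library reached 3.18 CPM. Of 15 fibroblast markers, 3 were above all other libraries in each of the 3, COL1A1 (31.5, 53.9 and 31.2 CPM against 10.7 CPM), COL1A2 and COL3A1, while the other 12 were not. Of those, COL5A1, COL5A2, FAP, PRRX1, THY1, ACTA2, PDGFRB and MME did not exceed the highest of the other 21 in any of the 3. COL6A3, TAGLN, TWIST1 and TWIST2 did so in some of them. TWIST1 and TWIST2 were near 0, with their highest values in LLY-283 day 2 (0.206 CPM) and vehicle day 7 repeat 1 (0.165 CPM). Among the other 21 libraries, TWIST1 reached 0.196 CPM. The summed level of the list was 568 to 671 CPM in vehicle and 676 to 693 CPM with LLY-283 at day 5. That sum says little about the 3 libraries, since COL5A2 and THY1 reached at least 189 and 96.9 CPM in every library. The part of fibroblast markers in these results was not tested. Without vehicle day 5 repeat 3, FN1, THBS1 and TGFBI fell over time in vehicle (log2 fold changes -1.23, -1.52 and -2.20, adjusted p = 0.0077, 0.0058 and 0.0021). With it they were at 1.80, 1.44 and 2.02 and not called. In the remaining vehicle libraries of day 5, THBS1 had only 5 and 11 counts and TGFBI 6 and 1. Outside the 3 libraries, each of these genes was highest in vehicle day 0 repeat 2.

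**Figure D5:**
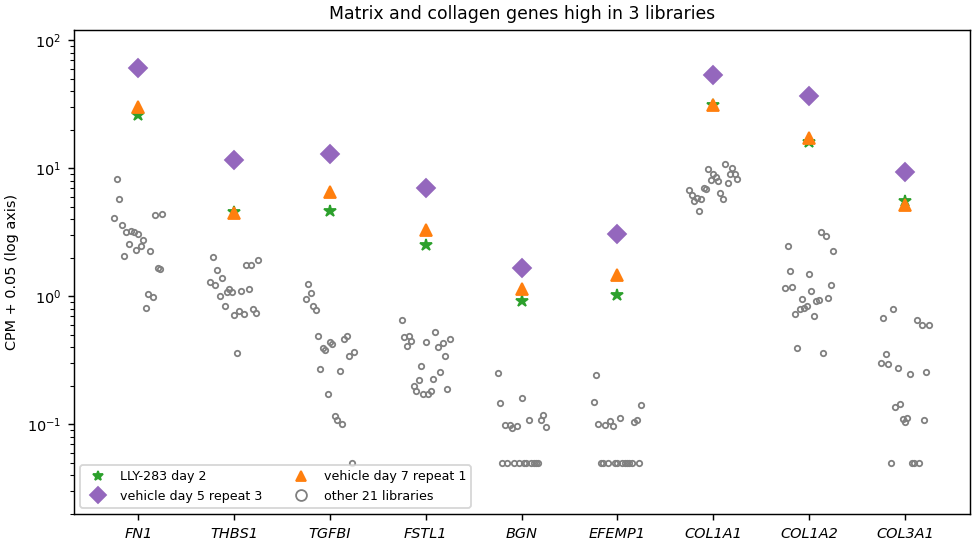
Level as CPM + 0.05, on a log axis, of the matrix genes and fibroblast collagens that stood apart, with 1 point per library; the 3 coloured libraries are the ones just described and the other 21 are grey. FN1 reaches 60.4 CPM in vehicle day 5 repeat 3, against at most 8.19 CPM in the other 21.

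Other genes of the matrix system were taken from 3 lists, for enzymes that cut the matrix, enzymes that build its sugar chains, and its receptors. Their counts stand against the 26.1% of all genes tested that were called at day 5, 12% higher and 14.1% lower, and a median of 0.02. Of 27 matrix proteases and their inhibitors, 26 were tested at day 5, 7 rose and 1 fell, with a median log2 fold change of 0.15. The protease inhibitor SERPINE2 rose by 0.77 on the log2 scale and the metalloprotease inhibitor TIMP4 by 0.60, while TIMP3 fell by 0.13. Of 41 genes that make or modify glycosaminoglycan chains, 37 were tested, 8 rose and 3 fell (median 0.07). The share called in either direction was near that of all genes. The split between higher and lower rests on few genes, and that of all genes turned with the scaling, as given above. The list was not refitted with the other scaling. CSGALNACT1, which starts chondroitin sulfate chains on proteoglycan cores, rose by 1.37 and the hyaluronan synthase HAS2 by 0.80. Of 20 matrix receptors, 18 were tested, 10 rose and 2 fell (median 0.22), among them the collagen receptor DDR1, which rose by 0.61, and the hyaluronan receptor HMMR, which fell by 0.27.

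On the genome, 5 pairs of the 54 genes lie within 1000 kb of each other. LUM and DCN are 29.0 kb apart on chromosome 12, and SPARCL1 and SPP1, which both rose at day 5, 444.6 kb apart on chromosome 4. On the same strand, exons of 3 genes overlap those of another gene (LAMA5, AGRN and FSTL1), so their counts are less certain. Exons of 23 overlap a gene of the opposite strand, among them BCAN, TNC, SPARC and PTX3. The library kit keeps strand, but whether the assignment of reads used it is not stated, so for these 23 reads of either gene may be counted.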

How the data were processed

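RNA of HSJD-DIPG-007 cells was measured in 24 libraries, grouped by the treatment and day in their labels. Trimmed reads had been pseudoaligned by the authors to hg38 transcripts with kallisto, and the deposited table holds whole-number estimated counts of each gene, not normalized. The kallisto version and annotation are not given in the sources used here. Identifiers were matched to GENCODE release 44, which gave a symbol for 58207 of 58676. Totals lay between 13835205 and 23190369, with a median of 18688160.5. Intervals and floors cover counting error only.

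Tests used edgeR 4.0.16 in R 4.3.3, with TMM scaling, filterByExpr by group, its robust quasi-likelihood test and p adjusted by Benjamini-Hochberg over all genes tested, called at an adjusted p under 0.01. Each SE, also in the figures, is the absolute log2 fold change divided by the square root of the F statistic of that test. Treatments were compared within day 5 and within day 0, days within each treatment, both by their interaction over 12 libraries, and days 1 to 3 with the day as a block. Day 7 and day 10 entered no main test. Alternatives were DESeq2 1.42.0, which the authors used, its size factors, library size alone, no filter, a threshold of 0.05, a block for the repeat number, 22 libraries in 1 fit, and leaving out each library or day in turn. Where this left 1 library in a group, it was assumed to vary like the others. The test was also run on simulated counts, in which all genes had the same spread beyond counting error and no library stood apart. That check therefore does not cover libraries such as the 3 described above.

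Genes were named where they were called with a log2 fold change over 0.5 at day 5 or 1.5 over time, were among the 5 highest per kilobase or the 3 smallest p of the interaction, or had a highest library over 5 times their median. Others are named as members of their role group. The genes, lists and rules were chosen with earlier results of these data known. Promoter windows are from RefSeq (GRCh38.p14), which matched 44 of the 54 genes.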

Additional observations from a re-analysis of the deposited data

Results flagged for a closer look

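The change from day 0 to day 5 differed between LLY-283 and vehicle for 19 matrix genes, by edgeR's interaction term over 12 libraries. Values are LLY-283 minus vehicle on the log2 scale. The largest was TLL1 at 2.02 (SE 0.19, adjusted p = 8.9e-09), followed by POSTN at 1.66 (SE 0.14, adjusted p = 1.4e-05), MATN2 at 1.57 (SE 0.10, adjusted p = 1.4e-11) and SPP1 at 1.07 (SE 0.074, adjusted p = 7.2e-11). TNC had 0.68 (adjusted p = 7.2e-11), CSPG5 0.90 (0.0012) and NCAN 0.52 (2.9e-08). Among the thrombospondins and SPARCL1, the value was 0.50 for THBS2 (adjusted p = 0.00036), 0.50 for THBS4 (4.6e-05), 0.45 for THBS3 (9.5e-05) and 0.43 for SPARCL1 (0.0011). The glypicans GPC6 and GPC1 had 0.45 (adjusted p = 4.2e-05) and 0.40 (3.7e-06). Smaller values were those of LAMB2 at 0.27 (adjusted p = 0.0011), LAMA4 at 0.25 (0.00061), BCAN at 0.22 (0.0043) and LAMA2 at 0.19 (0.0081). NID1 at -0.28 (adjusted p = 9.5e-05) and PTX3 at -0.75 (0.00059) were the negative ones. The calls of LAMA2 and BCAN were lost in 10 and 6 of the 12 fits that left out 1 library. The time effect was tested in 3 libraries per treatment and day, and the repeats are technical. The day 5 libraries are those of the treatment effect at day 5, and at day 0 edgeR called 0 of 42 matrix genes between treatments. These differences are therefore not independent of that day 5 effect, which was 1.61 for MATN2, 0.68 for TNC and -0.29 for NID1.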

How the results depend on the processing

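No gene called in the main tests was called in the opposite direction under an alternative. Values that were not called did turn. Without vehicle day 5 repeat 3, FN1, THBS1 and TGFBI over time in vehicle went from 1.80, 1.44 and 2.02 to called decreases of -1.23, -1.52 and -2.20. For THBS1 and TGFBI these decreases rest on the few counts given above. Over time in vehicle, DCN went from 1.36 to -0.14 without that library, and THBS1 and DCN turned sign at day 5. Values near 0, such as those of GPC2 and LAMC1 at day 5, and several over days 1 to 3 turned sign too. In 22 libraries fitted together, 13 matrix genes were higher and 1 lower at day 5 (2042 of all genes called against 4304). Lost in that edgeR fit were the day 5 calls of VCAN, NCAN, BCAN, CSPG5, LAMA2, LAMA4, LAMA5, LAMB1, SPARC, POSTN and NID1. Their adjusted p lay between 0.013 and 0.25. By edgeR the difference of time effects was there called higher for 0 and lower for 0 (51 of all genes against 2742). At an unadjusted p under 0.05 were 18 of 48 matrix genes and 5284 of all 20756 genes. Without the filter on low counts, 4 matrix genes were higher over days 1 to 3 (517 of all genes against 2), and 1, FN1, was lower at day 0 (56 of all genes against 3). The unfiltered fits also called genes that the filter removes. Among them were BGN at day 5 (log2 fold change -4.34, adjusted p = 0.0018) and HAPLN1 over time in vehicle (4.13, adjusted p = 0.00069). Both rest on few counts, most of them in vehicle day 5 repeat 3. BGN had 0, 0 and 22 counts in vehicle at day 5 and 1, 0 and 0 with LLY-283. HAPLN1 in vehicle had 0, 1 and 0 counts at day 0 and 1, 5 and 12 at day 5. The cause was not tested.

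Leaving out each library in turn gave 19 to 22 higher and 2 to 3 lower at day 5 (3193 to 4423 of all genes called). Over time in vehicle it gave 14 to 16 and 12 to 15 (5624 to 6114 of all genes). Over time with LLY-283 it gave 20 to 24 and 8 to 11 (6389 to 7233 of all genes). For the difference it gave 14 to 17 and 2 to 3 (2126 to 3000 of all genes). Leaving out each of days 1 to 3 gave 0 to 4 higher and 0 to 2 lower, with 3 to 417 of all genes called. With the repeat number as a replicate block, 22 were higher and 2 lower at day 5 (POSTN lost, adjusted p = 0.025), with 4401 of all genes called. Over time these counts were 16 and 12 in vehicle (6490 of all genes) and 23 and 11 with LLY-283 (7918 of all genes). For the difference they were 16 and 2 (LAMA2 lost, 2435 of all genes), and at day 0 they were 0 and 0 (6 of all genes). Deviations of libraries that share a number correlated between -0.092 and 0.057, and those with unlike numbers between -0.097 and 0.080. No pairing by number was thus seen, though so few libraries per group cannot exclude it. The calls lost in the most fits were LAMA2 (15) and BCAN (8) for the difference, DCN (11), MATN4 (9) and NID2 (7) over time with LLY-283, and LAMA5 (6) at day 5, followed at 5 each by SPARC at day 5, TNC over time with LLY-283 and HSPG2 over time in vehicle.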

Other observations

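The day 10 libraries, 1 per treatment, entered no test. MATN2 measured 92.8 CPM in vehicle against 119.7 CPM with LLY-283 there, and TLL1 5.26 and 12.1 CPM. TNC was at 292 and 376 CPM, NCAN at 276 and 562 CPM, and NID1 at 474 and 389.8 CPM. FBLN2 had its highest value of all 24 libraries in vehicle at day 10, 16.7 CPM, against 10.3 CPM with LLY-283, and BCAN likewise, at 747 CPM against 356 CPM. The endothelial marker PECAM1 was also highest there.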
